A study of Homo sapiens with 24 samples.

Results

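The untreated arrays labelled LNCaP were set against the untreated arrays labelled VCaP, 4 of the 24 arrays in the series. LNCaP and VCaP are established human prostate cancer lines of luminal epithelial character, LNCaP from a lymph node metastasis and VCaP from a vertebral metastasis. The 24 arrays cover these 2 lines, the bone metastasis line PC3 and the neuroendocrine prostate cancer line NCI-H660, each grown in RPMI-1640 with serum and exposed for 24 hours to DMSO vehicle or to 0.5 or 10 µM of I-BET762 (GSK525762A), an inhibitor of the BET bromodomain proteins. Each group had 2 biological replicates, and total RNA was read on Affymetrix U133 Plus 2.0 arrays, on which a probe set is a group of short probes for 1 transcript. The compared groups both received vehicle and no inhibitor. A probe set entered the comparison where its mean signal reached 100 in either group, which 27257 of 54613 did. Of 19775 named genes, each read by 1 probe set, 12162 reached that mean signal. Another probe set of a gene not counted may have reached it. With 2 arrays in each group, a p-value rests on the spread between replicate arrays, pooled over the 12 groups of all 24 arrays. That spread may be partly technical.

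Luminal prostate cells are the secretory cells of the gland, depend on androgen, and make keratins 8 and 18 and kallikrein-related peptidases. Many prostate cancers carry a rearrangement that puts an ETS transcription factor under androgen control. In VCaP the rearranged factor is ERG, joined to the androgen-driven promoter of TMPRSS2, and in LNCaP it is ETV1. LNCaP is also known for loss of the kinase JAK1, and VCaP for making the glucocorticoid receptor and the androgen-forming enzyme AKR1C3.

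Both groups carried luminal markers at high signal. The keratin KRT18 read 13395 and 13267 under the LNCaP label and 13154 and 13086 under the VCaP label. KRT8 read 3074 and 3189.7 against 2641 and 2477, and the homeobox factor HOXB13 7123 and 6893 against 6119.5 and 6347. The kallikrein KLK2 read 25559.9 and 25819.8 against 10093 and 10603, 2.48-fold higher under the LNCaP label. KLK3 (prostate-specific antigen) lay the other way, at 8119.9 and 7743 against 20204 and 20567 (2.57-fold). Neither was called (log2 difference 1.31 and -1.36, standard error 0.99 and 0.79, limma adjusted p = 0.385 and 0.24). The spread behind these p-values was pooled with the other lines, and they do not show that the labels were alike. At 10 µM KLK2 was called higher under the LNCaP label, and KLK3 under the VCaP label at both doses. Markers of other cells were mostly under the floor of 100, with 2 of 9 measured leukocyte genes and 2 of 10 endothelial genes past it, one of the latter being ERG itself. The former were CD3E, at 148 and 199 against 84.9 and 83.6, and CD14, at 90.3 and 109.9 against 32.9 and 5.0, and the part of such cells in the results was not tested. CD14, called higher under the LNCaP label, was lost without LNCaP replicate 1, LNCaP replicate 2 or VCaP replicate 2 (adjusted p from 0.187 to 0.498). The luminal character given by the labels was present in both groups. Of genes reported to separate the 2 lines, 6 reported as higher in VCaP were called opposite to the labels, as described next. Of those reported as higher in LNCaP, 2 were called opposite to the labels and 4 past the floor were not called. Among these, CDKN1A and MDM2 leaned with the labels. Both groups are called by their labels throughout, and whether the names were exchanged was not tested. The study's methods state that the lines were checked by short tandem repeat profiling, and no genotype was analysed here.

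The 4 arrays fell by label. Each correlated with the other 5 arrays of its own label at r between 0.9088 and 0.946 over 54613 probe sets, treated arrays included, and with the 6 arrays of the other label at r between 0.8522 and 0.8719. The highest correlation with a PC3 or NCI-H660 array was 0.8482. limma called a probe set where its Benjamini-Hochberg adjusted p was under 0.1 over all probe sets, the fold was over 2 and the mean signal reached 100 in either group. By that rule 4070 probe sets (14.9%) were higher under the LNCaP label and 4169 (15.3%) under the VCaP label. Of the 12162 genes, each read by its brightest probe set, 1696 (13.9%) were higher under the LNCaP label, 2016 (16.6%) under the VCaP label, and 8450 were not called. These percentages are the background against which the counts of gene groups stand. Of the 12162, 10159 were past the floor under both labels, 1049 only under the LNCaP label and 954 only under the VCaP label, and a gene of the last 2 kinds could hardly be called the other way. At 0.5 µM the same contrast called 1760 (14.4%) and 1827 (14.9%) of 12232 genes, and at 10 µM 1836 (15.1%) and 1871 (15.4%) of 12158. Differences are log2 of the signal on the arrays labelled LNCaP minus that on the arrays labelled VCaP, and where a group lay under the floor a fold is given as a bound against 100. Where values are set against each other, those under the LNCaP label come first unless the VCaP label is named first.

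**Figure D1:**
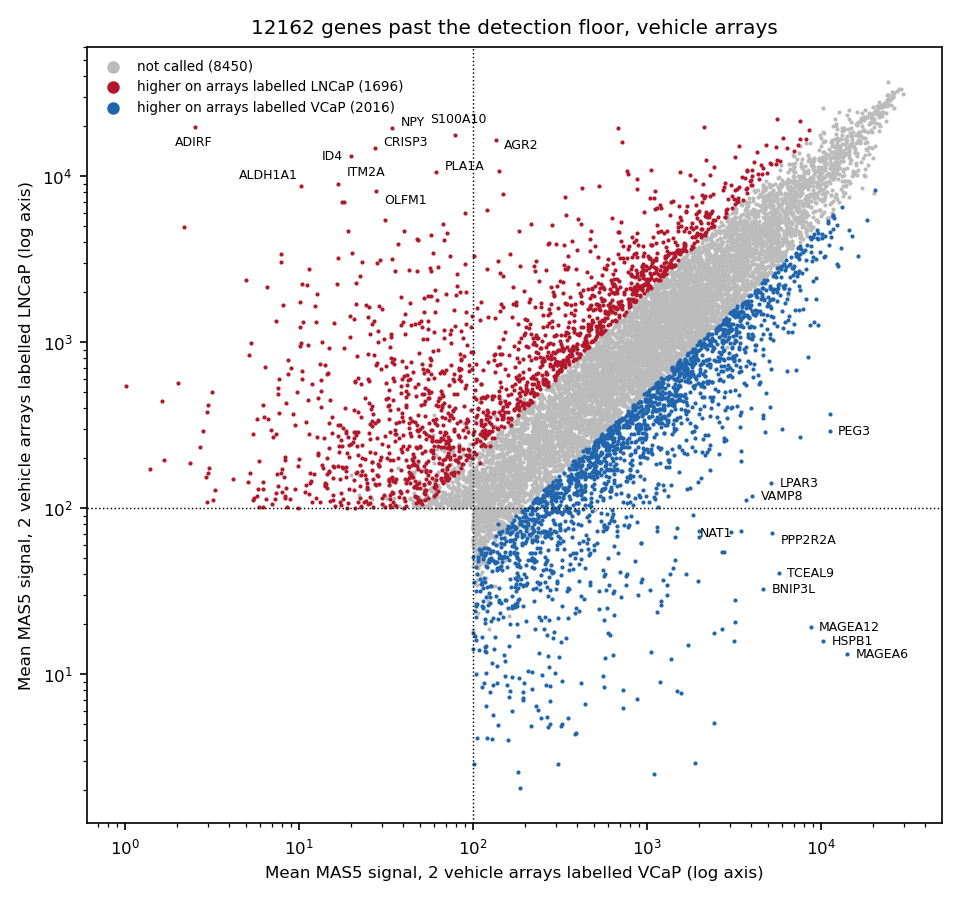
Mean MAS5 signal of 12162 genes on the 2 vehicle arrays labelled VCaP (horizontal, log axis) and the 2 labelled LNCaP (vertical, log axis). Red points (1696 genes) were called higher under the LNCaP label, blue points (2016) under the VCaP label and grey points (8450) were not called; dotted lines mark the floor of 100, and the 10 leading genes of each direction are named.

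A list of 10 genes that are reported as higher in VCaP than in LNCaP lay the other way round. Of these, 6 were measured and past the floor, and 6 of 6 were higher on the arrays labelled LNCaP, 5 of them against a VCaP label under the floor. With group means raised to 100, as for each list median given here, the median log2 difference was 4.59, against -0.04 over all genes past the floor; its other 4 members were not analysed here. The values of ERG, CRISP3 and TDRD1 were known when the list was made and are no independent evidence of its direction. The remaining 3 of 3 lay the same way. The lists were chosen with earlier results of these data known, so these 3 may not be independent evidence either. AKR1C3 and NR3C1 passed the floor only under the LNCaP label, which left them little room to go the other way. AKR1C3, which turns weak androgens into testosterone, read 4819 and 5114 under the LNCaP label and 2.3 and 2.1 under the VCaP label. The groups did not overlap, and AKR1C3 was at least 49.6-fold higher on the former (log2 difference 11.15, standard error 0.61, limma adjusted p = 1.24e-08). NR3C1, the glucocorticoid receptor, read 638 and 627 against 23 and 60.7, so that the arrays labelled VCaP lay under the floor, at least 6.32-fold lower (log2 difference 4.08, standard error 0.48, limma adjusted p = 1.62e-05). Each of its 4 probe sets past the floor was called the same way. JAK1, the kinase that serves the interferon receptors and many cytokine receptors, read 1359.5 and 1476 against 109.7 and 135, the lower pair lying just above the floor. It was 11.6-fold higher on the arrays labelled LNCaP (log2 difference 3.54, standard error 0.13, limma adjusted p = 2.88e-10), and its 3 probe sets past the floor were called alike.

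The ERG group itself gave the same picture on the 4 arrays. ERG read 6884 and 7085 under the LNCaP label and 16.2 and 20.1 under the VCaP label (at least 69.8-fold apart). CRISP3, a secreted cysteine-rich protein of the seminal fluid, read 15835 and 13549 against 37.6 and 17.3, at least 146-fold apart (log2 difference 9.17, standard error 1.06, limma adjusted p = 1.39e-05). TDRD1, a Tudor-domain protein of germ cells, read 691 and 757 against 7.9 and 20.5, at least 7.23-fold apart (log2 difference 5.83, standard error 0.54, limma adjusted p = 1.65e-06). NCI-H660, which also carries an ERG rearrangement, read 143 and 134 for ERG and 92.9 and 77.2 for TDRD1 in vehicle, both far below the arrays labelled LNCaP, while PC3 read 9.3 and 6.1 for ERG. AKR1C3, NR3C1 and JAK1 were bright in both other lines. In PC3 they read 613 and 666, 1494 and 1612, and 3182 and 3336, so that the arrays labelled VCaP were the only ones of the 4 vehicle groups with AKR1C3 and NR3C1 under the floor.

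The list of 7 genes reported as higher in LNCaP than in VCaP gave fewer calls. All 7 were measured and 6 were past the floor; limma called 0 higher on the arrays labelled LNCaP (1 at an unadjusted p under 0.05) and 2 higher on those labelled VCaP. The list's median log2 difference was -0.85. ETV1, like ERG, was known before to differ. ETV1 read 32.5 and 53.4 against 408 and 343, at least 3.74-fold higher on the arrays labelled VCaP (log2 difference -3.17, standard error 0.74, limma adjusted p = 0.00463), and each of its 5 probe sets was called that way. TMEFF2, a membrane protein of the prostate, read 1836 and 1819 against 4606 and 4524, 2.5-fold higher on the arrays labelled VCaP (log2 difference -1.32, standard error 0.53, limma adjusted p = 0.0841). Its call did not hold without any 1 of the 4 vehicle arrays, though the log2 difference stayed between -1.33 and -1.31. Over the alternative settings its limma adjusted p ran from 0.000143 to 0.83. TMEFF2 lay under the floor on the vehicle arrays of PC3 and NCI-H660, which share the estimate of the spread. Its 2 probe sets past the floor were called in opposite directions. FOLH1, prostate-specific membrane antigen, read 961 and 917 against 3062 and 2702, with both arrays labelled VCaP above both labelled LNCaP, but did not pass (log2 difference -1.62, standard error 0.73, limma adjusted p = 0.122). Its adjusted p ran from 9.06e-05, with only the 12 arrays of both labels in the fit, to 0.294 without VCaP replicate 1. FOLH1 lay under the floor in PC3 and NCI-H660, whose arrays share the estimate of the spread. At 10 µM it was called higher under the VCaP label.

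MIPOL1, the gene into which ETV1 is moved in LNCaP, read 739.9 and 767 against 925 and 1026 and did not pass (adjusted p = 0.229), but 2 of its 3 probe sets past the floor were called higher under the VCaP label. The p53 targets CDKN1A, an inhibitor of cyclin-dependent kinases, and MDM2, the ligase that degrades p53, read 3008 and 2950.4 against 2428 and 2454 and 1457 and 1218 against 1240.0 and 1034. CDKN1A differed by 0.29 on the log2 scale (adjusted p = 0.0715), short of the fold minimum, and MDM2 by 0.23 (adjusted p = 0.495). PCGEM1, a long noncoding RNA, lay under the floor in both groups.

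**Figure D2:**
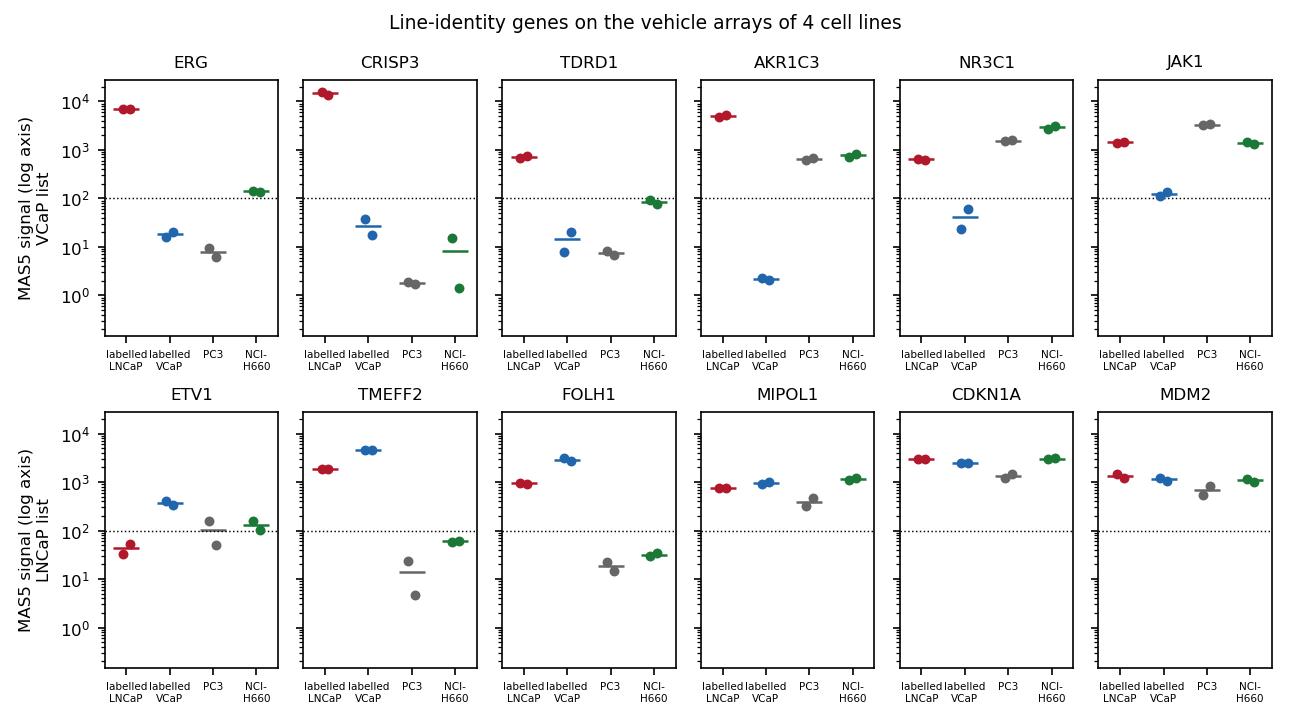
MAS5 signal (log axis) of 6 genes reported as higher in VCaP (top row) and 6 reported as higher in LNCaP (bottom row) on the 8 vehicle arrays of the 4 lines. Each point is 1 array, each bar the mean of its group, and a dotted line marks the floor of 100; in the top row both arrays labelled LNCaP lie above both labelled VCaP for each gene, and in the bottom row ETV1, TMEFF2 and FOLH1 lie the other way.

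The line-specific genes were also read on the arrays treated with I-BET762, which the vehicle contrast did not use. At 0.5 and at 10 µM, 6 of 6 genes of the VCaP list were again called higher on the arrays labelled LNCaP. ETV1 was called higher on those labelled VCaP at both doses, TMEFF2 at 0.5 µM and not at 10 µM, where its log2 difference was -0.15. CDKN1A, of the LNCaP list, was called in the direction of its label at 10 µM (log2 difference 1.10, limma adjusted p = 3.77e-06), and at 0.5 µM it differed by 0.86, short of the fold minimum. Over all genes, 1221 of the 1696 higher on the vehicle arrays labelled LNCaP were called alike at 0.5 µM (72.0% of the vehicle calls and 69.4% of those at 0.5 µM); 1667 kept the sign. At 10 µM 1080 were called alike (63.7% and 58.8%) and 3 the opposite way. Of the 2016 genes higher on the vehicle arrays labelled VCaP, 1386 were called alike at 0.5 µM (68.8% and 75.9%) with 4 the opposite way, and 1253 at 10 µM (62.2% and 67.0%) with 6 the opposite way. The 3 contrasts share no array but share an estimate of the spread.

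Beyond the ETS factors, the genes that stood farthest apart were bright under one label, and 23 of the 30 lay under the floor under the other. They are ranked by the difference after group means are raised to 100, so their large size is how they were chosen. ADIRF, an adipogenesis regulatory factor, led on the arrays labelled LNCaP at 19750.1 and 19839.7 against 2.7 and 2.5, at least 198-fold apart (log2 difference 12.92, standard error 0.12, limma adjusted p = 2.99e-16). NPY, the neuropeptide Y precursor, read 20326 and 18793 against 36.1 and 32.7 (at least 195-fold), and S100A10, a partner of annexin A2, 18108 and 17228 against 83.1 and 75.3 (at least 177-fold). Neither pair overlapped with the other label. ID4, an inhibitor of helix-loop-helix transcription factors, read 13739.6 and 12749 against 2.7 and 37.1 (at least 132-fold), with 5 of 5 probe sets called alike. AGR2, a disulfide isomerase of secretory cells, was measured on both sides at 16400.0 and 16546 against 118 and 154, 122-fold apart (log2 difference 6.93, standard error 0.26, limma adjusted p = 5.69e-10).

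The other leading genes on the arrays labelled LNCaP were enzymes, secreted proteins and transcription factors. PLA1A, a phospholipase, was at least 106-fold higher and ALDH1A1, a retinal dehydrogenase, at least 87.6-fold. IGFBP3, which binds insulin-like growth factors, read 10888 and 10517 against 154 and 130.3 (75.6-fold). EPAS1, the hypoxia-inducible factor HIF-2α, read 6124 and 5913 against 81.8 and 98 (at least 60.2-fold, log2 difference 6.07, standard error 0.13, limma adjusted p = 3.34e-12). The membrane protein ITM2A, the secreted glycoprotein OLFM1, the imprinted gene PEG10 and MAGEH1 completed the 15 with CRISP3 and ERG, at folds from at least 54.5-fold to at least 89.3-fold. All 15 lay under the floor or at most at 154 on both arrays labelled VCaP.

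On the arrays labelled VCaP the 2 antigens MAGEA6 and MAGEA12, whose genes are normally silent outside the germ line, and HSPB1, a small heat shock protein, stood first. MAGEA6 read 14387 and 14160.2 against 21 and 5.4 on the arrays labelled LNCaP, at least 143-fold apart (log2 difference -10.38, standard error 0.58, limma adjusted p = 1.52e-08). HSPB1 read 10357 and 10391 against 19.9 and 11.8, at least 104-fold apart (log2 difference -9.40, standard error 0.29, limma adjusted p = 1.04e-10), and MAGEA12 8811 and 8776 against 34.7 and 3.6 (at least 87.9-fold). The arrays labelled LNCaP were the only ones of the 4 vehicle groups with HSPB1 under the floor; it read 9547 and 9028 in PC3 and 13752 and 11699.7 in NCI-H660. Likewise ADIRF, under 3 on both arrays labelled VCaP, read 1472 and 1624 in PC3 and 1021 and 922 in NCI-H660. MAGEA6 and MAGEA12 are related members of the MAGEA family, and signal shared between them cannot be told apart on these probe sets.

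PPP2R2A, a regulatory subunit of protein phosphatase 2A, and BNIP3L, a receptor of mitochondrial autophagy, came next with TCEAL9. PPP2R2A read 5119 and 5453 against 81.1 and 59.7 (at least 52.8-fold, log2 difference -6.25, standard error 0.22, limma adjusted p = 2.19e-10) and BNIP3L 4561 and 4796 against 43.1 and 22.4 (at least 46.8-fold, log2 difference -7.23, standard error 0.37, limma adjusted p = 7.97e-09). These 2 genes follow each other in the gene order with no measured gene between them, as MAGEA12 and MAGEA6 do. PEG3, an imprinted zinc finger gene, read 10452 and 12109.9 against 287 and 299.5 (38.4-fold), and the hormone relaxin RLN1 11508 and 11269 against 369.8 and 368 (30.9-fold). The rest of the 15 were the lysophosphatidic acid receptor LPAR3, the arylamine acetyltransferase NAT1, the vesicle protein VAMP8, ZNF595, the receptor TNFRSF19, the adaptor EFS and the antigen PRAME, at folds from at least 31.9-fold to 36.7-fold. All 30 leading genes were called the same way at 0.5 µM and at 10 µM, and for each of them every probe set past the floor was called alike.

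**Figure D3:**
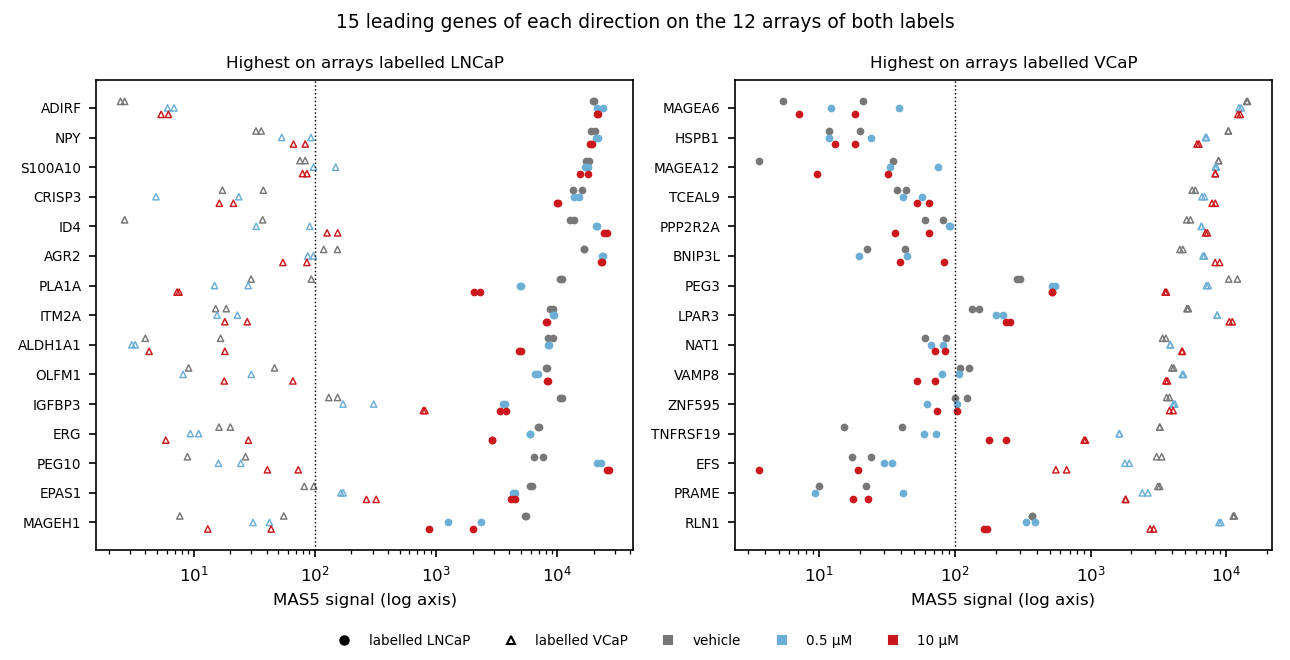
MAS5 signal (log axis) of the 15 leading genes of each direction on the 12 arrays labelled LNCaP (circles) or VCaP (triangles), coloured grey for vehicle, blue for 0.5 µM and red for 10 µM of I-BET762. Left, genes highest on the arrays labelled LNCaP; right, genes highest on those labelled VCaP; for each gene the circles and the triangles lie apart at each treatment, and the dotted line is the floor of 100.

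The promoters of 4 of these genes are shown because their transcripts lay near background under one label and among the brightest of the comparison under the other. Each window runs from 250 bases before to 50 after the gene's start, from RefSeq on GRCh38.p14, read 5′ to 3′ on the gene's strand, with CG dinucleotides in capitals. The windows are chr10:86968232-86968531 on the plus strand for ADIRF, chr6:49744339-49744638 on the minus strand for CRISP3, chr7:76302423-76302722 on the plus strand for HSPB1 and chrX:152769640-152769939 on the minus strand for MAGEA6.
ADIRF: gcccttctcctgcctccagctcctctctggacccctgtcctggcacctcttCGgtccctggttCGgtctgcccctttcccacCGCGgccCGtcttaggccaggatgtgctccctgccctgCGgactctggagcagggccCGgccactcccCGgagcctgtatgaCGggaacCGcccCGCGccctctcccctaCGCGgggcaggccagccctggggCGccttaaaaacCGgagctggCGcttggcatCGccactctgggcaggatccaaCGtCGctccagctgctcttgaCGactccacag
CRISP3: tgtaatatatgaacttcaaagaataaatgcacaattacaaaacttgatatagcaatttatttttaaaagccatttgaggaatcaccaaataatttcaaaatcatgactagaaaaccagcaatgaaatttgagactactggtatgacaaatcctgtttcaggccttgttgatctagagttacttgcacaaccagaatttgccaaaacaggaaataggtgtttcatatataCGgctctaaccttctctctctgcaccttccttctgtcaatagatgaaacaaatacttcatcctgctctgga
HSPB1: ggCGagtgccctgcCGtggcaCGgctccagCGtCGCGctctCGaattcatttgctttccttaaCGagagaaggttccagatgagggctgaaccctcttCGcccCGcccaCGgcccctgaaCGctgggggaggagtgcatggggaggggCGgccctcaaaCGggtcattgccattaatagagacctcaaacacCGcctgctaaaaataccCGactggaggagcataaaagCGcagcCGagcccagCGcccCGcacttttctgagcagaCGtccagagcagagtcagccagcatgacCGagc
MAGEA6: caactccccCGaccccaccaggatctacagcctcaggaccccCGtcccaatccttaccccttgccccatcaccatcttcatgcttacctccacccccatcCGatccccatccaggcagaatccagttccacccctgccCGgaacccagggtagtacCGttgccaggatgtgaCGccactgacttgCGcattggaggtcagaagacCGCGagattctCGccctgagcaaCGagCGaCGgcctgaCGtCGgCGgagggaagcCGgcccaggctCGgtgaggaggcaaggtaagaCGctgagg
The windows of ADIRF, HSPB1 and MAGEA6 hold 21, 22 and 19 CG dinucleotides, and that of CRISP3 holds 1. The letters CCGGAA, which contain the GGAA core that ETS factors bind, were searched on both strands. They occur in MAGEA6 and not in the other windows shown, and in 17.6% of the 27305 promoters of the table. Among the 15 leading genes on the arrays labelled LNCaP, 13 matched the table and 2 of them hold these letters. The share was 32.4% among genes past the floor that were not called and 26.3% among called genes past the floor under both labels. A match is a description of the sequence and no binding was measured.

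Transcription factors of the luminal lineage included calls in both directions. Of 17 past the floor, 4 were higher under the LNCaP label, 1 under the VCaP label and 12 were not called, with a median log2 difference of 0.54. SIM2, a basic helix-loop-helix factor, read 3816 and 4095 against 283 and 267 (14.4-fold, log2 difference 3.85, standard error 0.16, limma adjusted p = 1.05e-09). GATA2, which opens androgen-responsive enhancers, read 6753 and 7201 against 2127 and 2057 (3.33-fold), and GRHL1 1728 and 1919 against 739 and 861 (2.28-fold). TRPS1, a GATA-type repressor, lay the other way at 36.3 and 44.2 against 606 and 548 (at least 5.76-fold, log2 difference -3.85, standard error 0.35, limma adjusted p = 1.39e-06). FOXA1, the pioneer factor of luminal cells, read 3979.5 and 4004 against 2848 and 2653, short of the fold minimum. Of 18 ETS factors past the floor, 3 were higher under the LNCaP label and 2 under the VCaP label; beyond ERG and ETV1 these were ELF1 (2.27-fold) and FEV on the former and ELK4 (2.15-fold) on the latter, and FEV lay just past the floor at 107 and 106. The call of ELF1 was lost without VCaP replicate 1 (log2 difference 0.99), and those of ELK4 (-0.98) and FEV (0.71) without VCaP replicate 2.

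Androgen-regulated genes split evenly. Of 28 past the floor, 9 were higher under each label and 10 were not called, with a median log2 difference of -0.09. ACP3, prostatic acid phosphatase, read 20037 and 19111 on the arrays labelled LNCaP against 679 and 699 (28.4-fold, log2 difference 4.83, standard error 0.46, limma adjusted p = 2.25e-06). TRPM8, a cold-sensing channel, read 7796 and 7163 against 342 and 337 (log2 difference 4.46, standard error 0.92, limma adjusted p = 0.00189), and NDRG1 22180.0 and 21799 against 5499.6 and 5773 (3.9-fold). On the arrays labelled VCaP, TSC22D3, a leucine zipper protein that glucocorticoids and androgens induce, read 2117 and 1988 against 174 and 129.5 (13.7-fold, log2 difference -3.77, standard error 0.14, limma adjusted p = 4.29e-10). SLC45A3, a prostate membrane transporter, read 6154 and 6133 against 2354 and 1914 (2.89-fold). Only 1 of its 2 probe sets past the floor was called, and it was not called at 0.5 or 10 µM (log2 difference -0.24 and -0.21). TMPRSS2 read 8838 and 8862 against 9868 and 9941 and FKBP5, a chaperone of steroid receptors, 7215 and 6985 against 7118 and 7287, neither called (adjusted p = 0.868 and 0.93). At 10 µM 7 of the 9 genes higher under the LNCaP label were called again, and 2 of the 9 higher under the VCaP label.

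Steroid enzymes and nuclear receptors held calls in both directions. Of 19 steroid and androgen metabolism genes past the floor, 6 were higher under the LNCaP label and 5 under the VCaP label. Of these, 4 of the 6 and 1 of the 5 had passed the floor only through that label. AKR1C3 stood first, and the dehydrogenase HSD17B11, which oxidises androgens, read 3401 and 2985 against 743 and 663 (4.54-fold, log2 difference 2.18, standard error 0.15, limma adjusted p = 9.84e-08). SRD5A1, a 5α-reductase, lay the other way at 832 and 756 against 1984 and 1928 (2.47-fold, log2 difference -1.30, standard error 0.12, limma adjusted p = 2.16e-06), as did HSD17B8 (2.92-fold) and HSD17B10 (2.45-fold). Of 22 nuclear receptors past the floor, 6 were higher under the LNCaP label and 4 under the VCaP label. Of these, 5 of the 6 and 1 of the 4 had passed the floor only through that label. NR2F1, an orphan receptor, read 580.2 and 718 against 20.6 and 8.8 (at least 6.46-fold, log2 difference 5.58, standard error 0.81, limma adjusted p = 0.000104) beside NR3C1, and the oxysterol receptor NR1H3 113 and 43.8 against 813 and 774 (at least 7.45-fold higher on the arrays labelled VCaP, log2 difference -3.49, standard error 0.34, limma adjusted p = 2.85e-06).

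Surface proteins differed in both directions. Of 22 prostate surface antigens past the floor, 8 were higher under the LNCaP label and 4 under the VCaP label, and of 24 receptor tyrosine kinases 7 and 4. CD24, a small glycoprotein with 6 of 6 probe sets called, read 4549.8 and 4327 against 73.6 and 42 (at least 44.4-fold, log2 difference 6.32, standard error 0.83, limma adjusted p = 4.39e-05). GRPR, the gastrin-releasing peptide receptor, read 938 and 934 against 164 and 119 (6.71-fold), and CD276, the checkpoint ligand B7-H3, 5694 and 5985 against 1332 and 1378 (4.31-fold). The receptor FGFR3 read 1729.8 and 1667 against 164 and 178 (9.95-fold, log2 difference 3.31, standard error 0.46, limma adjusted p = 7.1e-05), but 1 of its 2 probe sets past the floor was called. EPHA3, an ephrin receptor, lay furthest the other way at 3.1 and 2.7 against 1776 and 2009 (at least 18.9-fold higher on the arrays labelled VCaP, log2 difference -9.34, standard error 0.66, limma adjusted p = 1.29e-07). ERBB3 read 925 and 1000.3 against 4298 and 4249 and ERBB2 669 and 728 against 1524 and 1505, 4.44-fold and 2.17-fold higher on the arrays labelled VCaP. For ERBB2, 1 of the 2 probe sets past the floor was called.

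Both labels kept epithelial genes, with some junction genes differing. Of 29 keratin and junction genes past the floor, 7 were higher under the LNCaP label, 4 under the VCaP label and 18 were not called, with a median log2 difference of 0.02. KRT19, a keratin of simple epithelia, read 3232 and 3686 against 37.5 and 81.5 (at least 34.5-fold, log2 difference 5.96, standard error 0.33, limma adjusted p = 1.47e-08). The desmosome protein PKP1 read 1962 and 2337 against 6.5 and 6.7 (at least 21.4-fold) and the claudin CLDN8 4098 and 4027 against 364 and 379.8 (10.9-fold). RAB25, a trafficking GTPase of epithelia, read 514 and 447 against 3411 and 3423 (7.12-fold higher on the arrays labelled VCaP, log2 difference -2.83, standard error 0.22, limma adjusted p = 3.73e-07), and CLDN7 3491 and 2987 against 10621 and 10229 (3.23-fold). E-cadherin, CDH1, read 9715 and 8552 against 10337 and 9257 and was not called (adjusted p = 0.558). Of 32 measured mesenchymal genes 10 were past the floor, 4 of them only under the VCaP label, and 5 were higher on the arrays labelled VCaP and 1 on those labelled LNCaP. FN1, fibronectin, read 123 and 130.3 against 633 and 609 (4.91-fold, log2 difference -2.30, standard error 0.54, limma adjusted p = 0.00492) and the factor TWIST1 42.6 and 42.1 against 269 and 239.7 (at least 2.54-fold), while VIM, vimentin, read 75.6 and 178 against 241 and 191 and was short of the fold minimum.

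Several neuroendocrine genes were detected under 1 label only. Of 25 measured, 12 lay under the floor in both groups, 6 passed it only under the LNCaP label, 2 only under the VCaP label and 5 under both. Of the 13 past it, 7 were higher under the LNCaP label and 2 under the VCaP label, 6 of the 7 having passed only through that label. SCGN, a calcium sensor of endocrine cells, read 2187 and 2302 against 12.5 and 8.4 (at least 22.4-fold, log2 difference 7.78, standard error 0.53, limma adjusted p = 9.47e-08). The granule protein CHGA read 674 and 611 against 21.3 and 7.8 (at least 6.42-fold) and CHGB 794 and 805 against 38.1 and 29.9 (at least 8-fold). UCHL1, a ubiquitin hydrolase of neurons, read 1580.0 and 1624 against 86.6 and 126 (15.3-fold). ENO2, neuron-specific enolase, lay the other way at 169 and 172 against 2335 and 2273 (13.5-fold, log2 difference -3.75, standard error 0.12, limma adjusted p = 1.5e-10), and so did DDC, which makes dopamine and serotonin, at 1230.2 and 1197 against 6065 and 6128 (5.02-fold). At both doses 6 of the 7 and 2 of 2 were called alike.

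Genes of cell growth control differed in part, and those of cell division little. Of 25 p53 targets past the floor, 4 were higher under the LNCaP label and 7 under the VCaP label, with a median log2 difference of -0.66. FAS, a death receptor, read 5631 and 5402 against 431 and 374 (13.8-fold, log2 difference 3.78, standard error 0.20, limma adjusted p = 8.98e-09), with 5 of 5 probe sets called. PMAIP1, the BH3-only protein NOXA, read 232 and 286 against 2051 and 2194 (8.23-fold higher on the arrays labelled VCaP, log2 difference -3.04, standard error 0.16, limma adjusted p = 7.33e-09). ZMAT3, an RNA-binding protein, DDB2, a sensor of DNA damage, and TNFRSF10B, a TRAIL receptor, were at least 7.77-fold, 6.49-fold and 5.59-fold higher on the same arrays. The count of 4 became 2 without LNCaP replicate 1. Of 50 proliferation genes past the floor 4 were higher under the LNCaP label and 2 under the VCaP label, with a median log2 difference of 0.04. TTK, a spindle checkpoint kinase, and the transcription factor E2F2 were 2.26-fold and 2.38-fold higher under the LNCaP label, and CCNE1, cyclin E1, 3.26-fold higher under the VCaP label; the 4 became 2 without VCaP replicate 1. Of 14 cell cycle inhibitors and D cyclins limma called 0 higher on the arrays labelled LNCaP (3 at an unadjusted p under 0.05) and 2 on those labelled VCaP, among them CDKN2A, the p16 inhibitor, at 76 and 77.8 against 588 and 593 (at least 5.91-fold, log2 difference -2.94, standard error 0.17, limma adjusted p = 2.16e-08). Of 20 PI3K pathway genes 2 and 4 were called: IRS2, an insulin receptor adaptor, read 5571 and 5693 against 620.3 and 645 (8.91-fold), and PIK3CD, a catalytic subunit best known from leukocytes, 92.3 and 50.7 against 3167 and 2966 (at least 30.6-fold higher on the arrays labelled VCaP, log2 difference -5.49, standard error 0.31, limma adjusted p = 1.97e-08).

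In the interferon and JAK-STAT list the called receptor genes and most called response genes lay on opposite sides. Of 33 genes past the floor, 8 of them only under the VCaP label, 6 were higher under the LNCaP label and 13 under the VCaP label. Beside JAK1, the former included the 4 receptor chains for type I and type II interferon. IFNGR2 read 7543 and 7667 against 2356 and 2298 (3.27-fold, log2 difference 1.71, standard error 0.16, limma adjusted p = 1.84e-06). IFNAR2, IFNAR1 and IFNGR1 were 3.09-fold, 2.69-fold and 2.41-fold higher. Only 1 of the 3 probe sets of IFNAR2 past the floor was called, and 1 of the 4 probe sets of IFNAR1 was called the opposite way. On the arrays labelled VCaP the kinase JAK2 read 345 and 359.6 against 18.6 and 47.3 (at least 3.52-fold, log2 difference -3.57, standard error 0.33, limma adjusted p = 1.63e-06). The response genes IFITM2, at 3146 and 2872 against 529.8 and 479.5 (5.96-fold), IFI6 (at least 5.71-fold), ISG15 (2.88-fold) and IFIT1, at 236 and 199.6 against 5.0 and 4.8 (at least 2.17-fold), were higher there too. Within this list OAS3 was the 1 called response gene higher on the arrays labelled LNCaP (2.53-fold). Interferon-induced genes of other lists were not counted here and lay on both sides. Among them CXCL10, CXCL11 and PSMB8 were called higher under the LNCaP label in vehicle and at neither dose. PSMB10 and HLA-B were called higher under the VCaP label. The call of PSMB10 was lost without LNCaP replicate 1 (log2 difference -1.16). For HLA-B 1 of 3 probe sets past the floor was called, and it was not called at 10 µM. Which genes hold each role was read from textbook knowledge after the values were seen.

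Immune-related genes outside the interferon list also split. Of 24 antigen presentation genes past the floor, 8 were higher under the LNCaP label and 7 under the VCaP label. Of the 8, 5 were called again at 0.5 µM and 1 at 10 µM, and of the 7, 5 and 4. Class II genes lay on both sides. HLA-DMB, a chaperone of class II loading, read 8122 and 8219 against 1458 and 773 (7.7-fold, log2 difference 2.94, standard error 0.27, limma adjusted p = 1.47e-06), and its partner HLA-DMA 116 and 121 against 1032 and 949.7, 8.36-fold higher on the arrays labelled VCaP (log2 difference -3.06, standard error 0.22, limma adjusted p = 1.91e-07). HLA-DRB1 read 3137 and 3510.1 against 360.1 and 352 (9.33-fold), though alleles of these genes differ in sequence between lines and probe binding was not tested. B2M, the shared light chain of class I, read 18399 and 17215 against 15741 and 16136 and was not called (adjusted p = 0.365). Of 14 chemokine and cytokine genes past the floor, 10 of them under 1 label only, 7 were higher under the LNCaP label and 3 under the VCaP label, led by the chemokines CXCL10, at 1248 and 1323 against 70.2 and 23.6 (at least 12.8-fold, log2 difference 4.98, standard error 0.68, limma adjusted p = 5.88e-05), and CXCL11, at 956 and 1019.9 against 7.6 and 13.1 (at least 9.88-fold). Of those 7, 2 were called again at 0.5 µM and 1 at 10 µM.

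Cancer-testis genes that were detected were read mostly under the VCaP label. Of 28 measured members 11 were past the floor, 9 of them only under the VCaP label, 1 only under the LNCaP label and 1 under both, while 17 lay under the floor in both groups. The 9 were called higher on the arrays labelled VCaP and the 1, TDRD1, on those labelled LNCaP, a direction that the floor nearly fixes. Beside MAGEA6, MAGEA12 and PRAME, MAGEA1 read, under the VCaP label first, 1402 and 1345 against 7.0 and 17.8 (at least 13.7-fold, log2 difference -6.94, standard error 0.46, limma adjusted p = 7.2e-08) and PAGE1 576 and 580.4 against 19.3 and 5.8 (at least 5.78-fold). MAGEA10 read 589.6 and 550.3 against 7.8 and 8.8 (at least 5.7-fold) and MAGEA4 456 and 415 against 21.8 and 35.2 (at least 4.35-fold). On both arrays labelled LNCaP these 4 lay under 40. Of the 9, 8 were called again at 0.5 and at 10 µM. Probe sets of the MAGEA family may share signal, so these members are not independent of each other.

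Wnt receptors and detoxification enzymes made up 2 further groups. Of 30 Wnt pathway genes past the floor, 10 were higher under the LNCaP label and 4 under the VCaP label. Of these, 5 of the 10 and 3 of the 4 had passed the floor only through that label. LEF1, a transcription factor of the pathway, read 2968 and 2966 against 100.2 and 79.9 (at least 29.6-fold, log2 difference 5.05, standard error 0.85, limma adjusted p = 0.000362), the receptor FZD4 2829 and 2919 against 196 and 179.7 (15.3-fold), the ligand WNT2 902 and 881 against 70.3 and 56.8 (at least 8.91-fold) and LGR4, a receptor of R-spondins, 1698 and 1691 against 267 and 295 (6.04-fold). Among the 4 higher on the arrays labelled VCaP, the ligand WNT10B lost its call without any 1 of the 4 vehicle arrays (log2 difference -1.93 to -1.87). APC lost its call without LNCaP replicate 1 (-0.88). Of the 10, 7 were called again at each dose, and of the 4, 1 at 0.5 µM and 0 at 10 µM. Of 30 glutathione and detoxification genes 3 were higher under the LNCaP label and 7 under the VCaP label. GPX3, a secreted peroxidase, read 3769 and 4642 against 47.7 and 48.4 (at least 41.8-fold, log2 difference 6.44, standard error 0.39, limma adjusted p = 2.96e-08) beside ALDH1A1. NQO1, a quinone reductase, read, under the VCaP label first, 4938 and 4783 against 497 and 485 (9.9-fold, log2 difference -3.31, standard error 0.11, limma adjusted p = 1.41e-10) and catalase, CAT, 9028 and 8947 against 2324 and 2317 (3.87-fold), both higher on the arrays labelled VCaP.

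In the BET and MYC network, the HOX clusters, the prostate long noncoding RNAs and mismatch repair the called genes were read against the background of 13.9% and 16.6%. Of 17 genes of the BET proteins and the MYC network past the floor, 2 were higher under the LNCaP label and 1 under the VCaP label. MXI1, a repressor that competes with MYC for its partner MAX, read 1275 and 1241 against 4145 and 3869 (3.19-fold, log2 difference -1.67, standard error 0.10, limma adjusted p = 3.19e-08), and the sugar-sensing factor MLXIP 4553 and 3643 against 1399.6 and 1256 (3.07-fold). MYC itself read 5270.2 and 5382 against 6063 and 5912 and the BET protein BRD2 2919 and 3225 against 2348 and 2424, and neither was called. Of 14 HOX genes 1 was higher under the LNCaP label (HOXC4, 2.37-fold) and 2 under the VCaP label (HOXC13, at least 1.52-fold, and HOXB1, at least 1.29-fold). HOXB1 was lost without LNCaP replicate 2 (adjusted p = 0.121) and without VCaP replicate 2 (0.131). Of 11 long noncoding RNAs 2 and 1 were called, led by PCAT6 at 154 and 127 against 1225 and 1088 (8.26-fold higher under the VCaP label). Of 5 mismatch repair genes past the floor, limma called 0 higher under the LNCaP label (0 at an unadjusted p under 0.05) and MLH3 alone under the VCaP label (2.28-fold).

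**Figure D4:**
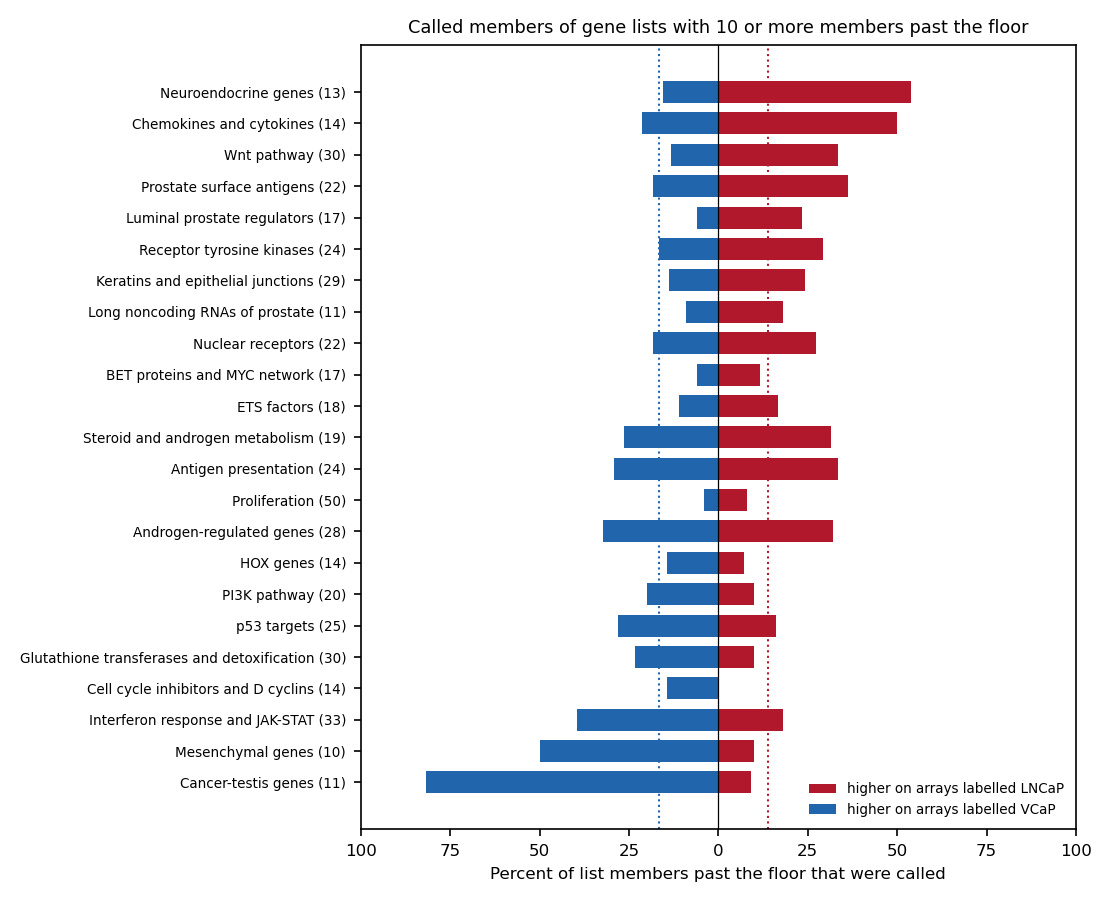
Percent of the members past the floor that were called higher on the vehicle arrays labelled LNCaP (red, to the right) or VCaP (blue, to the left), for the gene lists with 10 or more members past the floor (number in parentheses). Dotted lines mark the share of all genes past the floor called in each direction, 13.9% and 16.6%. A member that passed the floor under 1 label only had little room to go the other way, as for 10 of the 11 cancer-testis genes and 8 of the 13 neuroendocrine genes, so the bars describe the members and do not rank the lists.

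Some called genes lay side by side in the genome. In the RefSeq gene order, restricted to measured genes, the longest run called higher on the arrays labelled LNCaP held 8 genes, from PLAAT4 to MARK2, with a median log2 difference of 1.71. PLAAT3, a phospholipase of that run, read 19632 and 20178 against 2119 and 2161 (3.22 on the log2 scale) and RTN3, a protein that shapes the endoplasmic reticulum, 15659 and 15339 against 4792 and 4859 (1.68). A second run held 6 genes from YIPF3 to MAD2L1BP (median 1.22), and 3 runs of 5 ran from COL4A2 to ING1 (2.51), OSBPL10 to CMTM6 (2.40) and ELL2 to LIX1 (1.84). Of the runs higher on the arrays labelled VCaP, 3 held 6 genes, from GCNT2 to MAK (-2.98), RAB27A to PYGO1 (-2.02) and COQ8A to WNT9A (-1.50). In the first of these TMEM14C, a mitochondrial membrane protein, read 1290.0 and 1005 against 6759 and 6277 (-2.52) and PAK1IP1, a nucleolar protein, 201 and 241 against 1886 and 1906 (-3.11). Runs of 5 went from H3C8 to BTN3A1 (-1.66) and from CCP110 to GPRC5B (-1.56). Outside the runs, STON1, an endocytic adaptor, read 1309 and 1398 against 119 and 101.2 (12.3-fold) and was 1 of 2 called, both higher under the LNCaP label, among 8 genes past the floor from its stretch of chromosome 2. MSN, moesin, which links the membrane to actin, read 38.2 and 9.2 against 1176 and 1133 (at least 11.5-fold higher under the VCaP label) and was 1 of 2 called, both in that direction, among 6 from its stretch of the X chromosome. These runs were picked for their calls, so they are descriptions, and gene copy number was not analysed here.

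**Figure D5:**
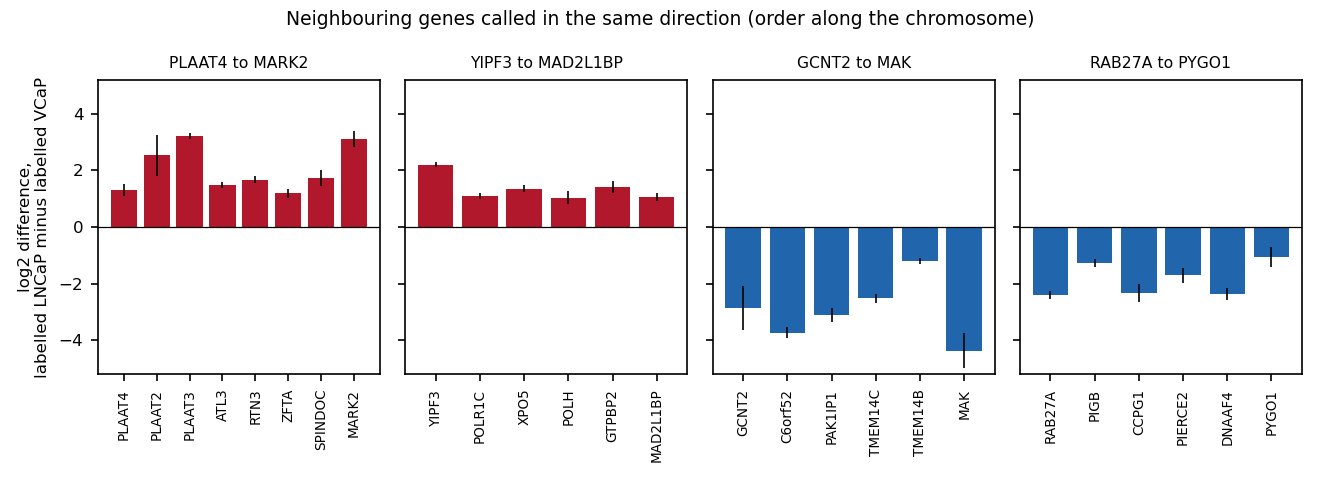
Log2 difference, labelled LNCaP minus labelled VCaP, of the genes in 2 of the longest runs called in each direction, in their order along the chromosome. Bars are estimates from the limma fit and lines are standard errors; the genes from PLAAT4 to MARK2 and from YIPF3 to MAD2L1BP lie above 0, and those from GCNT2 to MAK and from RAB27A to PYGO1 below 0.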

How the data were processed

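Total RNA of the 24 samples was hybridised, 1 sample per array, to Affymetrix U133 Plus 2.0 arrays. The deposited values are MAS5 signal intensities on a linear scale, scaled by the authors to a trimmed mean of 500 per array (per the labels, MAS5 5.0; the methods speak of log2 values, which the file does not hold). The number of arrays, 2 per group, limits the precision. Here 62 control probe sets of 54675 were left out and log2 signals entered 1 limma model (version 3.58.1, R 4.3.3) of 12 groups, without a trend. The contrast was labelled LNCaP vehicle minus labelled VCaP vehicle. A call needed an adjusted p under 0.1 over 54613 probe sets, a fold over 2 and a mean signal of 100 in either group. The platform table gave 1 symbol to 41091 probe sets, several to 1801 and none to 11721. Each gene was represented by its brightest probe set on the log2 scale, _x_at last, and the RefSeq table of GRCh38.p14 gave the gene order. A group mean under 100 was raised to 100, array by array, for a bound on the fold. The fit was tested on simulated data.

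The members, the 30 gene lists and the tests were chosen with earlier results of these data known. The text names the 15 genes with the largest difference in each direction, the line-specific genes, up to 4 called members per list and direction and genes of the neighbour runs; other genes were named after their values were seen. The alternatives were quantile normalization, median centring, an intensity trend, other sets of arrays in the fit, a replicate block, each vehicle array left out, other floors, thresholds and adjustment, a pseudocount of 16 and other probe set rules. Some list members were not analysed here.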

Additional observations from a re-analysis of the deposited data

Results flagged for a closer look

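For 2 of the line-specific genes limma's test of the interaction, adjusted over all probe sets, passed for the difference between the labels at 10 µM against that in vehicle. For AKR1C3 the fitted interaction was -3.40 at 10 µM (standard error 0.86, adjusted p = 0.0279) and -4.20 at 0.5 µM (adjusted p = 0.0187), but it is taken against signals under the floor of 100 under the VCaP label, 2.3 and 2.1 in vehicle and 2.5 and 21.3 at 10 µM, so its size and its p have no firm reading. Under the LNCaP label AKR1C3 read 4819 and 5114 in vehicle and 1720.3 and 1457 at 10 µM, and with group means raised to 100 the log2 difference was 5.63 in vehicle and 3.98 at 10 µM. CDKN1A differed by 0.29 in vehicle and by 1.10 at 10 µM, an interaction of 0.81 (standard error 0.16, adjusted p = 0.00638). It went from 3008 and 2950.4 to 5705 and 5540.0 on the arrays labelled LNCaP and from 2428 and 2454 to 2686 and 2562 on those labelled VCaP.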

How the results depend on the processing

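The counts of probe sets and genes kept within 1.5 times of the values reported under each alternative run, except without the fold minimum, where 7822 and 7922 probe sets and 3490 and 4043 genes were called on the arrays labelled LNCaP and VCaP. Leaving out 1 vehicle array gave 3823 to 3897 and 3934 to 4029 probe sets and 1606 to 1662 and 1920 to 1976 genes. Replicate numbers did not pair the samples (correlation of same-number deviations 0.0588), and a replicate block gave 4063 and 4163 probe sets and changed no call of 193 named genes. Quantile normalization and median centring moved the median difference by 0.014 and -0.031.

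Among the lists, the 6 of 6 genes reported for VCaP became 3 of 3 without ERG, ETV1, CRISP3 and TDRD1, an alternative chosen after seeing the data. The 2 of the LNCaP list higher on the arrays labelled VCaP became 1, TMEFF2, without those genes, and 1, ETV1, under quantile normalization, at an adjusted p under 0.01, with the mean over a gene's probe sets and without any 1 vehicle array (1 to 1); without the fold minimum 1 member, CDKN1A, was called higher on the arrays labelled LNCaP. The 4 p53 targets higher on the arrays labelled LNCaP became 2 under quantile normalization, with log2(signal + 16) and without LNCaP replicate 1 (2 to 4 over the arrays left out), and without the fold minimum 15 were higher on those labelled VCaP. Proliferation genes became 15 and 8 without the fold minimum, 2 to 4 on the arrays labelled LNCaP when 1 array was left out, and 0 on those labelled VCaP with the mean over probe sets (limma). Antigen presentation genes higher on the arrays labelled VCaP became 4 at a floor of 200 and with the mean over probe sets, which also gave 5 on those labelled LNCaP and 5 androgen-regulated genes on those labelled VCaP. Leaving out 1 array also moved small counts of HOX, leukocyte, mesenchymal, ETS and BET genes, by 1 or 2 genes each.

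Of the genes named as called, ELF1, ELK4, MLH3, MSN, DDC, IFNAR1, HOXB1, CCNE1 and WNT9A also lost their call with the mean over probe sets, and IFNAR2 with _x_at probe sets treated like the others. Directions reversed for few genes. With the mean over probe sets the log2 difference was 0.11 for TMEFF2, -0.11 for PCGEM1, -0.05 for FBXO11 and 0.04 for LAS1L, none of them past the threshold, and with _x_at probe sets treated like the others it was 0.53 for COL1A1, from -3.48. Leaving out 1 array turned 5 uncalled genes: FOXN2 (-0.05 to 0.45), ZC3H12B (-0.81 to 0.07), HEPH (-0.20 to 3.12), VSIG4 (-1.88 to 0.80) and GTF2A1L (-0.63 to 2.24). The causes were not tested. A signal under 100 has no reliable size, so 725 of the 1696 and 591 of the 2016 called genes have only a bound on their fold. For 966 and 1423 the fold was measured under both labels, and the few others, CD14 among them, have neither.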
